A study of Homo sapiens with 4 samples.

Results

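The MAGE family was examined in 4 RNA-seq libraries of cells labelled A549, a line derived from a human lung adenocarcinoma. Members were taken by name: every protein-coding gene of the count table whose symbol begins with MAGE followed by a letter from A to L. This gave 35 genes out of 58735 identifiers in the table, 26 of them in the testis-restricted MAGEA, MAGEB and MAGEC groups and 9 in the groups MAGED to MAGEL. The cells carried a wild-type genotype label and were grown without a drug treatment in the labels. They were stained with an anti-ICAM1 antibody and sorted by flow cytometry, giving 2 libraries of an ICAM1-high and 2 of an ICAM1-low subset. ICAM1 is a surface adhesion protein that leukocyte integrins bind. Whether the 2 libraries of a subset are separate cultures or separate sorts is not in the labels, and a p-value here reflects only how far these libraries vary, possibly for technical reasons.

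MAGE proteins share a conserved MAGE homology domain, through which many of them bind RING-type E3 ubiquitin ligases and alter the activity or the targets of the ligase. MAGEA, MAGEB and MAGEC genes are clustered on the X chromosome, are normally transcribed mainly in the germ line of the testis, and are known to be silenced by promoter methylation in somatic tissue and reactivated in many tumours, including lung cancers. Peptides of these proteins are tumour antigens recognised by T cells. MAGED to MAGEL genes are transcribed in many somatic tissues, with the exception of a few that are mostly neural.

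Library totals were 16272591 to 17638647 counts. The labels' cell line was checked first. A549 cells carry a known deletion of CDKN2A on both copies of chromosome 9, yet this gene had 1009 and 1214 counts in the ICAM1-high libraries and 0 in both ICAM1-low libraries, and the adjacent, usually co-deleted MTAP had 459 and 463 counts against 1 and 8. At these genes the ICAM1-high libraries do not match the line they are labelled with, and every difference below rests on those 2 libraries. Of the 11 genes listed for the line, these 2 and CDKN2B included, 6 rose and 4 fell in ICAM1-high. With scaling by library size alone 7 rose and 3 fell. The keratin genes KRT8 (2.38-fold) and KRT19 (2.10-fold) were higher, ALDH1A1 (log2 fold change -1.06) and AKR1B10 (-0.79) were lower, and the fibrinogen genes FGA, FGB and FGG had at least 5422 counts in each library. Fibroblast markers summed to 81.1 and 91.2 CPM (counts scaled to the TMM-adjusted library size) in ICAM1-high and 49.6 and 52.2 CPM in ICAM1-low, and 5 of the 8 tested out of 14 rose. COL1A1 (505 and 551 counts against 60 and 66), LUM (43 and 56 against 3 and 5) and FAP (17 and 25 against 0 and 1) were among the higher ones, while COL1A2 and COL3A1 had at most 1 count in any library and POSTN and DPT had 0. Endothelial markers summed to 52.3 and 57.0 against 37.1 and 40.4 CPM, and 4 of 6 tested out of 14 rose and 1 fell. ENG (4.88-fold), PECAM1 (4.25-fold), ERG (37 and 52 counts against 0 and 0) and CDH5 (37 and 27 against 0 and 1) rose, and TIE1 and PLVAP had 1 count in 1 library. Leukocyte markers summed to 28.8 and 28.3 against 19.4 and 20.3 CPM, and 2 of 4 tested out of 14 rose (CD14 and LAPTM5) and 1 fell (ITGAM), with PTPRC, CD3E and MS4A1 at 0. Of the tested markers, 4 fibroblast, 2 endothelial and 2 leukocyte genes were abundant enough for testing in ICAM1-high alone. LUM, FAP, ERG, CDH5 and LAPTM5 were among them. Of all genes tested on that basis 62.7% were called higher, beside 30.4% of all genes tested. The rises of the fibroblast markers FBLN1 and PDGFRB were lost in 5 and 3 other settings. The part of these markers in the MAGE differences was not tested. In bulk RNA, fewer cells that transcribe a gene and less of its RNA in each cell cannot be told apart.

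The genome neighbourhood and the sequence of the members bear on how they can be counted. MAGEA3 (ENSG00000221867, chromosome X, 152698752 to 152702347, plus strand) and MAGEA6 (ENSG00000197172, 152766136 to 152769747, minus strand) face each other on GRCh38, with MAGEA2B, MAGEA12 and MAGEA2 between them. The 300-base RefSeq windows around the starts of MAGEA3 and MAGEA6 were identical in 300 of 300 bases. Those of MAGEA3 and MAGEA2 aligned over 233 columns at 90.1% identity, and those of MAGEA3 and MAGEA12 over 227 columns at 89.4%. The 250 bases before the start are printed for MAGEA3 and MAGEA6, which had enough counts to be tested, for MAGEA2 and MAGEA12, which lie between them and had too few, and for the broadly transcribed MAGED1 and MAGEE1, 5′ to 3′ on the strand of the gene, from RefSeq on GRCh38.p14. Capitals mark CG dinucleotides, the sites that DNA methylation acts on. The windows are chrX:152698544-152698793 (plus) for MAGEA3, chrX:152769690-152769939 (minus) for MAGEA6, chrX:152753885-152754134 (minus) for MAGEA2, chrX:152733507-152733756 (plus) for MAGEA12, chrX:51802826-51803075 (plus) for MAGED1 and chrX:76427460-76427709 (plus) for MAGEE1.
MAGEA3 and MAGEA6: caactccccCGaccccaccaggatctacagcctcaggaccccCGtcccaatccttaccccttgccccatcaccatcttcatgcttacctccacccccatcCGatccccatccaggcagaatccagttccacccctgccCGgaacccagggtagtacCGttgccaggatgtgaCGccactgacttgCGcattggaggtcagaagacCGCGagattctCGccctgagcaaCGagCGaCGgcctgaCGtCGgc
MAGEA2: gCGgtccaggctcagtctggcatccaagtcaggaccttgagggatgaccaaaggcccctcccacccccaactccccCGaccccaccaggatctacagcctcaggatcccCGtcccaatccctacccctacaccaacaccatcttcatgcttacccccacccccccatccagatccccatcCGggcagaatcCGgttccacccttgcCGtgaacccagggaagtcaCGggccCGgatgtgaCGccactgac
MAGEA12: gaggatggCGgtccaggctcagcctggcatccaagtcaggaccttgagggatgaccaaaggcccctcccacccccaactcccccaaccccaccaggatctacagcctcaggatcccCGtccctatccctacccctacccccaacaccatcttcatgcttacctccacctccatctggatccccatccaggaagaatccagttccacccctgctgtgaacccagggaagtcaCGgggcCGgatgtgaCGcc
MAGED1: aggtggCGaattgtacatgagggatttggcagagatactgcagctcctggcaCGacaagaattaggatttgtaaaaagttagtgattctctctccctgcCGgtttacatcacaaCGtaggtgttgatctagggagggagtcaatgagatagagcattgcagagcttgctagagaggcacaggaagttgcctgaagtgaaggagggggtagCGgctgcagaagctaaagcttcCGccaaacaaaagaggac
MAGEE1: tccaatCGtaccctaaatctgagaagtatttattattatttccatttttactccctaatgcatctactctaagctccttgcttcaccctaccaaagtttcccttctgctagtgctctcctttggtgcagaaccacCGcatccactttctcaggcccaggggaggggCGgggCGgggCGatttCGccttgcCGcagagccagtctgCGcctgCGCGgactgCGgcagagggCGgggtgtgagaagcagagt

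The MAGEA3 and MAGEA6 window held 15 CG dinucleotides, that of MAGEA2 held 9 and that of MAGEA12 held 5. MAGED1 had 6 and MAGEE1 had 12. The median over all 35116 windows of the table was 11, with quartiles of 3 and 23. Of the 31 members with a window, 23 had 1 window, and for the others the one farthest upstream was used. MAGEA1, MAGEA10, MAGEB17 and MAGEH1 had no window, so their starts were not examined. The RefSeq start lay 23.8 kb inside the GENCODE gene for MAGEA11 and 56.4 kb inside it for MAGEC3. Over the 31 members, the 6 that could be tested for expression had 6 to 15 CG dinucleotides and the other 25 had 1 to 22. The core of many ETS factor sites, searched as CCGGAA and on the other strand as TTCCGG, was found in 4 of the 31 windows. That share is close to the 14.5% of all windows. The members were MAGEA3, MAGEA6, MAGEF1 and MAGEB6, and the windows of MAGEA3 and MAGEA6 are the same sequence. The 6 letters begin 113 bases before the start in MAGEA3 and MAGEA6. They include a CG dinucleotide, so the 2 searches overlap, and a match is a description of the letters only.

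**Figure D1:**
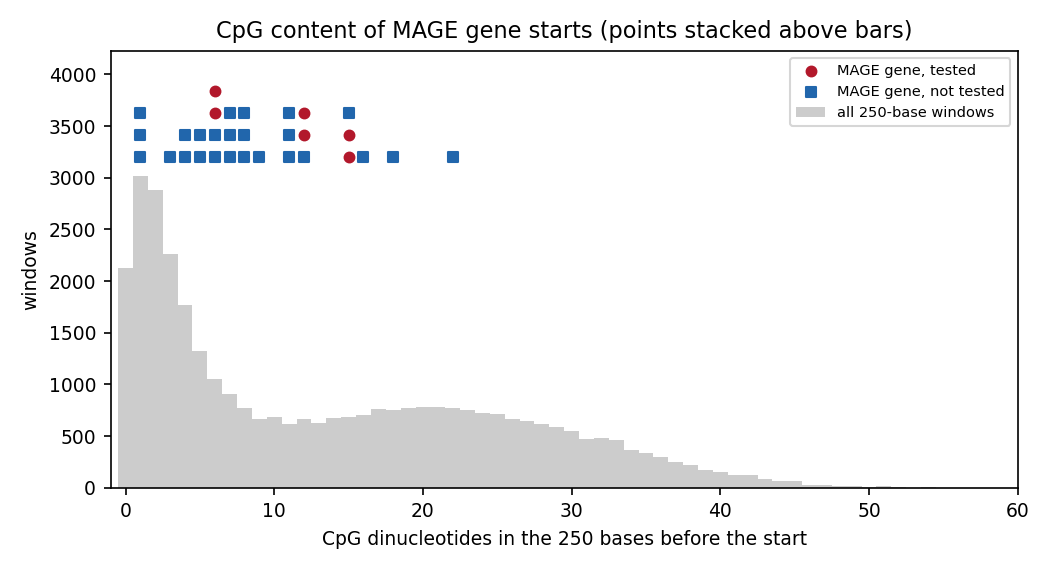
CG (CpG) dinucleotides in the 250 bases before the start. Grey bars count all 35116 RefSeq windows, and the points above them, stacked only for legibility, are the 31 MAGE genes with a window, red circles for the 6 that were tested and blue squares for the 25 that were not. Tested genes lie between 6 and 15 and the others between 1 and 22, so the 2 sets overlap.

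Shared sequence sets which members can be told apart. Of the stretches of 50 bases in the MAGEA3 transcripts, 43.5% occur in no other annotated gene, and 54.9% also occur in MAGEA6. For MAGEA6 46.1% are its own. MAGEA2 (3.62%) and MAGEA2B (11.9%), MAGEA9 (6.01%) and MAGEA9B (15.3%), and MAGED4 (0.991%) and MAGED4B (3.71%) have few stretches of their own. MAGEA1 (99.3%), MAGED1 (99.2%), MAGED2 (98.4%), MAGEE1, MAGEF1 and MAGEH1 (100% each) are nearly or wholly distinct. For neither the read length nor the treatment of reads that match several genes do the sources used here give a statement. Counts of the 3 near-identical pairs, and the split between MAGEA3 and MAGEA6, are therefore uncertain.

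**Figure D2:**
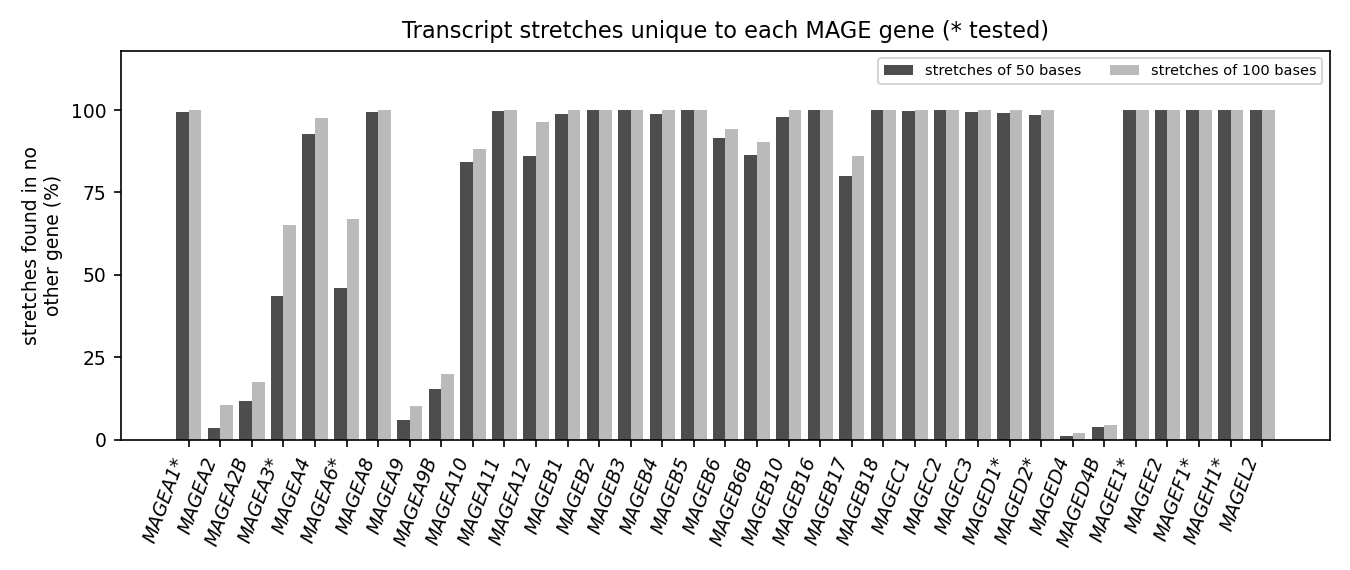
Share of transcript stretches, in percent, that occur in no other annotated gene on either strand, for each of the 35 MAGE genes. Dark bars are stretches of 50 bases and light bars of 100 bases, and an asterisk marks the 8 tested genes. MAGEA2, MAGEA2B, MAGEA9, MAGEA9B, MAGED4 and MAGED4B lie at 20.1% or below, and MAGEA3 and MAGEA6 between 43.5% and 67.0%.

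Of the 35 genes, 8 were abundant enough to be tested, 9 had between 1 and 32 counts over the 4 libraries and were not tested, and 18 had 0 counts in every library. A count of 0 allows up to 0.161 to 0.196 CPM per library, the level of 3 counts, so transcription below that was not detectable at this depth. For MAGEA2, MAGEA2B and MAGEA9, which have near-identical copies, this bound need not hold, since shared reads may not have been counted. The 8 tested genes were MAGEA1, MAGEA3, MAGEA6, MAGED1, MAGED2, MAGEE1, MAGEF1 and MAGEH1, and each was higher in ICAM1-high (quasi-likelihood test in edgeR, p adjusted by Benjamini-Hochberg under 0.05). Over all 16250 genes tested, 30.4% were called higher and 29.4% lower, 59.7% in either direction. MAGEA1 and MAGEA3 passed the expression filter through the ICAM1-high libraries alone, a route that favours genes higher in ICAM1-high. Of the 1272 genes that passed in this way, 62.7% were called higher. The other 6 were abundant enough in both subsets, where 29.0% of 14279 genes were called higher and 32.2% lower. In each of the 8 genes both ICAM1-high libraries lay above both ICAM1-low libraries, as for 40.1% of all genes tested, while 38.3% lay wholly below. MAGEA1, MAGEA3, MAGEA6 and MAGEE1 were called at 2-fold or more, as were 10.8% of all genes tested upward and 4.71% downward. Scaling by library size alone in place of TMM moved the median log2 difference over the tested genes upward by 0.17, and gave 41.4% of genes as higher and 19.2% as lower. It turned no tested MAGE gene.

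The testis-restricted group was transcribed from a small part of its members. Summed over the 26 genes the ICAM1-high libraries held 663 and 695 counts and those of ICAM1-low 41 and 44, or 35.6 and 37.9 CPM against 2.62 and 2.87 CPM. MAGEA1, MAGEA3 and MAGEA6 made up 98.3% and 98.6% of these counts in ICAM1-high, and 85.4% and 84.1% in ICAM1-low. In sum the group was higher in both ICAM1-high libraries, and nearly all of it came from the same 3 genes.

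MAGEA1 (ENSG00000198681, chromosome X, 153179285 to 153183880, plus strand) encodes the founding member of the family, a melanoma antigen recognised by cytotoxic T cells. ICAM1-high libraries had 291 and 294 counts of it and each ICAM1-low library had 1. This is 15.8 ± 0.280 CPM (SD, n = 2) against 0.0646 CPM, which lies under the level of 3 counts. The ratio of library-scaled counts was 245 (95% exact binomial interval 67.5 to 2026, covering counting error only). The edgeR quasi-likelihood test gave an adjusted p of 7.49e-31. The ICAM1-low level cannot be told from 0 at this depth, so the size of the ratio is known only within that wide interval.

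MAGEA6 and MAGEA3 are close relatives whose proteins are known to bind TRIM28, a RING-type ligase, and to direct it to the energy sensor kinase AMPK. MAGEA6 had 265 and 276 counts in the ICAM1-high pair of libraries against 28 and 26, a level of 14.6 ± 0.573 CPM (n = 2) against 1.74 ± 0.0676 CPM (n = 2). It was thus present in both subsets, and it rose by 3.06 on the log2 scale (standard error, SE, 0.19, edgeR adjusted p = 4.28e-23). MAGEA3 had 96 and 115 counts against 6 and 10, or 5.71 ± 0.786 against 0.518 ± 0.190 CPM (n = 2 each), and a log2 fold change of 3.45 (SE 0.33, edgeR adjusted p = 9.97e-15). With the counts of both genes summed before the fit, the pair was 8.97-fold higher in ICAM1-high (edgeR adjusted p = 4.58e-27), a call that does not depend on how reads were split between them. MAGEA3 took 26.6% (95% exact binomial interval 22.1% to 31.5%) and 29.4% (24.9% to 34.2%) of the pair's counts in the ICAM1-high libraries, and 17.6% (6.76% to 34.5%) and 27.8% (14.2% to 45.2%) in the ICAM1-low libraries. These intervals overlap, and a difference in the split was not detectable at this depth. Log2 changes of at least 3, as found for MAGEA1, MAGEA3 and MAGEA6, were called for 2.68% of all genes tested. That share is not a like background for MAGEA1 and MAGEA3. Both passed the filter through ICAM1-high alone, which favours a rise.

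The other 23 testis-restricted genes had too few counts to test. In the MAGEA group MAGEA12 had 4 and 1 counts against 0 and 2. It lies between MAGEA3 and MAGEA6, and 86.2% of its 50-base stretches are its own. MAGEA8 had 4 counts in all, MAGEA10 had 3 and MAGEA9B had 1. MAGEA2, MAGEA2B, MAGEA4, MAGEA9 and MAGEA11 were at 0 in every library. MAGEA11 and MAGEA4, the latter a target of engineered T cells, have mostly sequence of their own (99.8% and 92.7% of 50-base stretches).

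Of 11 MAGEB genes 10 were at 0 in every library. MAGEB6 was the exception, with 3 and 9 counts against 2 and 2, at or near the level of 3 counts in 3 of the 4 libraries. MAGEB1, whose protein binds the ligase TRIM31, MAGEB2 and MAGEB18, a partner of the ligase LNX1, were among those at 0. In the MAGEC group MAGEC1 and MAGEC3 were at 0. MAGEC2, which like MAGEA3 binds TRIM28, had 2 counts in 1 ICAM1-high library and 1 count in 1 ICAM1-low library.

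**Figure D3:**
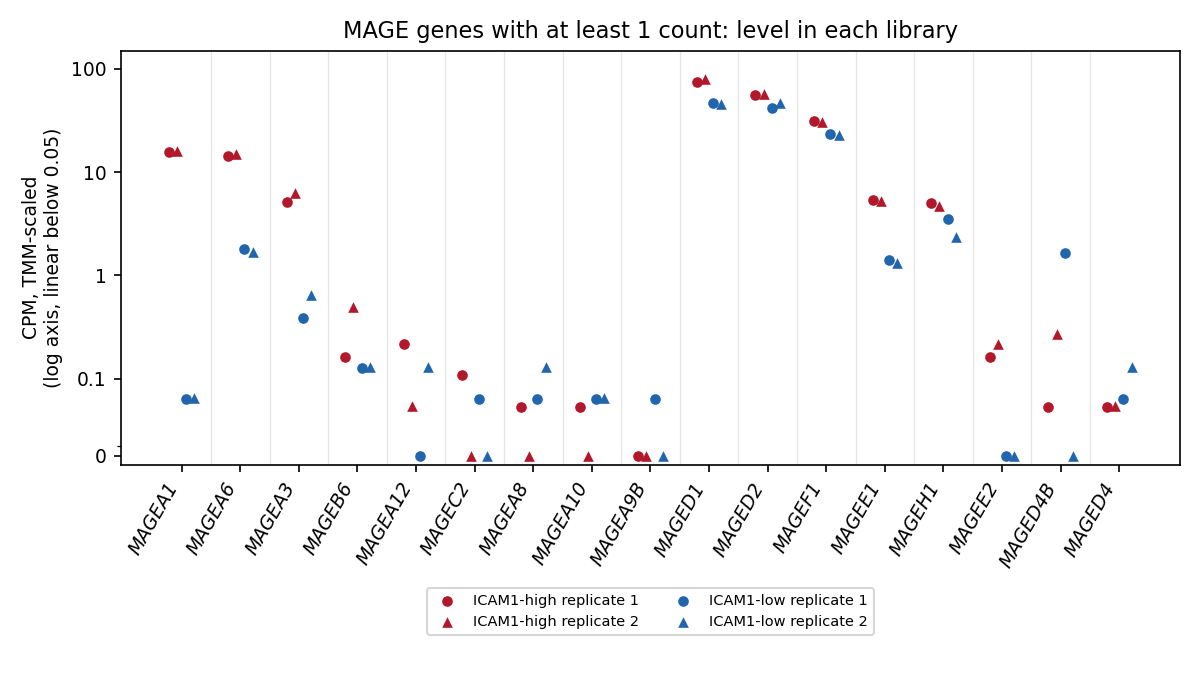
Level of the 17 MAGE genes with at least 1 count, in TMM-scaled CPM on a log axis that is linear below 0.05 so that 0 can be shown. Each point is 1 library, red for ICAM1-high and blue for ICAM1-low, circles for replicate 1 and triangles for replicate 2. MAGEA1, MAGEA6 and MAGEA3 stand far apart between the subsets, MAGED1, MAGED2 and MAGEF1 are abundant in all 4 libraries, and MAGED4B is high in a single ICAM1-low library.

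The broadly transcribed group made up most of the family's RNA. Its 9 genes summed to 3217 and 3258 counts in the ICAM1-high libraries against 1850 and 1824, which is 172.6 and 177.4 CPM against 118.3 and 118.9 CPM. MAGED1, MAGED2, MAGEE1, MAGEF1 and MAGEH1 were tested and rose, with a median log2 fold change of 0.73 beside 0.012 for all genes tested. MAGED4, MAGED4B, MAGEE2 and MAGEL2 had too few counts.

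MAGED1 (ENSG00000179222, chromosome X, 51803007 to 51902357), also known as NRAGE, is an adaptor of the neurotrophin receptor NGFR and of the ligase PJA1. Its counts were 1382 and 1458 against 725 and 700, a level of 76.8 ± 3.71 against 46.0 ± 0.516 CPM (n = 2 each). The log2 fold change was 0.74 (SE 0.07, edgeR adjusted p = 9.23e-16), the smallest adjusted p of the group. MAGED1 overlaps AC241520.1 and RNU6-504P and MAGED2 overlaps SNORA11, whose reads may not be told apart from theirs. MAGED2 (ENSG00000102316, chromosome X, 54807599 to 54816012), whose loss causes a transient antenatal form of Bartter syndrome, had 1048 and 1043 counts against 656 and 717. At 56.5 ± 0.399 against 44.4 ± 3.39 CPM its log2 fold change of 0.35 (SE 0.07, edgeR adjusted p = 2.02e-05) was the smallest of the 8. Without ICAM1-low replicate 1 it was 0.265 (adjusted p = 0.0172).

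MAGEF1 (ENSG00000177383, chromosome 3, 184710367 to 184712002), the tested member that is not X-linked, encodes a partner of the ligase NSMCE1 that targets the iron-sulfur assembly factor MMS19. Its counts were 589 and 564 against 365 and 349, or 31.2 ± 0.630 against 23.0 ± 0.417 CPM, and rose by 0.43 on the log2 scale (SE 0.09, edgeR adjusted p = 2.81e-05). MAGEE1 (ENSG00000198934, chromosome X, 76427724 to 76431353), which binds the dystrophin partner dystrobrevin, had 100 and 96 counts against 22 and 20. It was at 5.30 ± 0.0976 against 1.36 ± 0.0729 CPM, and its log2 fold change of 1.96 (SE 0.27, edgeR adjusted p = 1.99e-09) was the largest among MAGED to MAGEL and the only one above 2-fold. MAGEH1 (ENSG00000187601, chromosome X, 55452105 to 55453566), another protein reported to bind NGFR, had 93 and 87 counts against 55 and 36. Its rise of 0.73 (SE 0.23, edgeR adjusted p = 0.0052) was lost without ICAM1-low replicate 2 (0.46, adjusted p = 0.142) and in DESeq2 (adjusted p = 0.0702).

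Among the members of this group with few counts, MAGEE2 had 3 and 4 counts against 0 and 0, about the level of 3 counts per library, so no fold is given. MAGED4B had 1 and 5 counts against 26 and 0, so that 81.25% of its 32 counts came from ICAM1-low replicate 1, and its copy MAGED4 had 1 or 2 counts in each library. For MAGED4B the subsets overlap. MAGEL2 (chromosome 15), an imprinted gene of the Prader-Willi region whose protein joins TRIM27 and USP7 in endosomal recycling by the WASH complex, was at 0 in all 4 libraries.

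**Figure D4:**
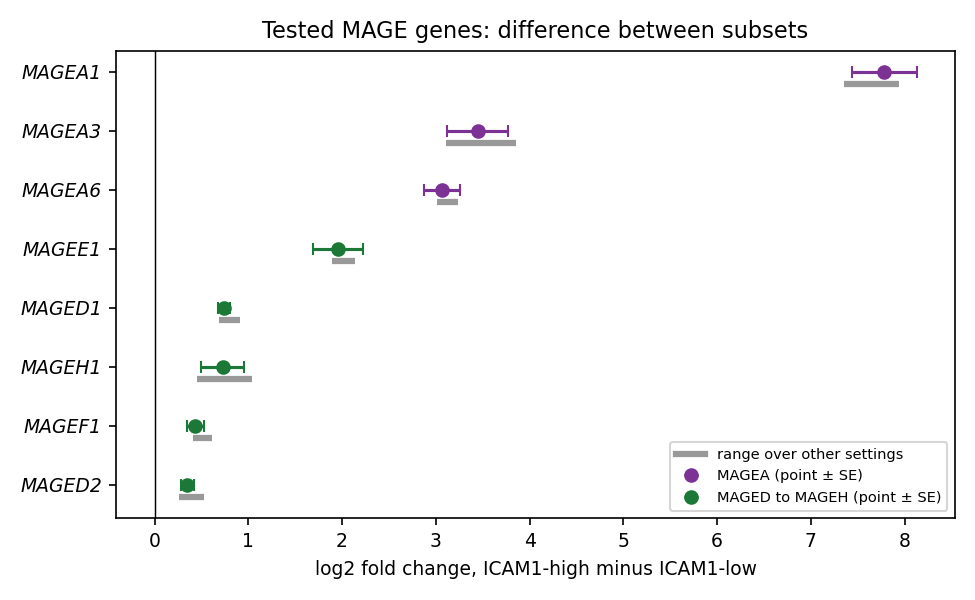
Log2 fold change, ICAM1-high minus ICAM1-low, of the 8 tested MAGE genes. Points with bars are the edgeR estimate ± SE, purple for MAGEA and green for MAGED to MAGEH, and the grey bar beneath each is the range over the other settings tried. All lie above 0, from 0.35 for MAGED2 to 7.78 for MAGEA1, whose ICAM1-low level is under 3 counts.

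Levels of different genes were compared as CPM per kilobase of exon. In ICAM1-high the order was MAGED2 (19.2), MAGEF1 (19.0), MAGED1 (12.8), MAGEA1 (9.25), MAGEA6 (7.85), MAGEH1 (3.33), MAGEA3 (3.19) and MAGEE1 (1.46 CPM per kilobase). MAGED2 and MAGEF1, and MAGEH1 and MAGEA3, did not differ beyond the spread of the libraries. In ICAM1-low the order was MAGED2 (15.1), MAGEF1 (14.1), MAGED1 (7.65), MAGEH1 (2.01), MAGEA6 (0.936), MAGEE1 (0.373), MAGEA3 (0.290) and MAGEA1 (0.0378 CPM per kilobase), with MAGEE1 and MAGEA3 not separated. MAGED2 and MAGEF1 were barely separated there, since the lowest MAGED2 and the highest MAGEF1 library both rounded to 14.27. MAGEA1 was thus the lowest of the 8 in ICAM1-low and the fourth in ICAM1-high. The levels of MAGEA3 and MAGEA6 depend on how shared reads were counted.

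Ligases and other proteins known to bind MAGE proteins moved in both directions. Of 15 listed, 13 were tested, 5 rose and 6 fell, with a median log2 fold change of -0.043. Over all genes tested 30.4% were called higher and 29.4% lower. TRIM28, the partner of MAGEA3, MAGEA6 and MAGEC2, had 8012 and 8446 counts against 4584 and 4592, a rise of 0.59 (SE 0.04, edgeR adjusted p = 2.79e-20). PJA1, the ligase bound by MAGED1, rose by 0.79 (SE 0.11), and TRIM31 by 0.77 (SE 0.20). The receptor gene NGFR rose from 0.583 ± 0.282 to 2.67 ± 0.0867 CPM, having passed the filter through ICAM1-high alone. NSMCE1, the ligase of MAGEF1, fell by 0.35 (SE 0.09). PRKAA1, the catalytic subunit of AMPK, had a log2 fold change of -0.11 (adjusted p = 0.0483) and MMS19 one of -0.043 (adjusted p = 0.599). With scaling by library size alone 5 rose and 1 fell, so the falls of HUWE1, USP7, PRKAA1 and NSMCE1 depend on the scaling, and the estimates of USP7 and PRKAA1 change sign. The call of USP7 was also lost without ICAM1-low replicate 2, and that of PRKAA1 in 6 settings, among them the omission of ICAM1-high replicate 2 or of either ICAM1-low library (adjusted p up to 0.241).

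NSMCE3, a MAGE protein named outside the letter rule, is the MAGE subunit of the SMC5/6 genome maintenance complex. With 552 and 475 counts against 362 and 338 it rose by 0.30 on the log2 scale (SE 0.10, edgeR adjusted p = 0.00554). That call was lost without ICAM1-high replicate 1, without ICAM1-low replicate 2 and in DESeq2 (adjusted p up to 0.142). Of the 7 subunits listed, the other 6 fell, with the ATPase gene SMC6 at 74.7 ± 2.16 against 132.2 ± 8.19 CPM (log2 fold change -0.82, SE 0.06, edgeR adjusted p = 6.75e-21). NSMCE4A fell by 0.51 (SE 0.08), and EID3, its germ line relative, fell by 1.31 (SE 0.22). EID3 overlaps TXNRD1 on the same strand in the annotation, so reads of the 2 genes may not be told apart. By library size alone 3 of the 7 fell and 1 rose, with SMC5, NSMCE1 and NSMCE2 no longer called. The call of NSMCE2 was also lost in DESeq2, and those of NSMCE2 and SMC5 when single libraries were left out. Of all genes tested 30.4% were called higher and 29.4% lower, which is the background for this list and the WASH list below. NDN, another MAGE gene of the Prader-Willi region, was at 0 in all libraries, and TRO had 24 counts in all. Of the 12 genes of the WASH and retromer machinery in which MAGEL2 acts, 3 rose and 7 fell (5 and 3 by library size alone). The falls of VPS35, VPS26A and WASHC3 were lost by library size alone. Those of VPS26A and WASHC3 were also lost in DESeq2, and those of VPS35 and VPS26A when single libraries were left out. WASHC4 fell by 0.67 (SE 0.05) and WASHC1 by 0.99 (SE 0.15), while VPS26B rose by 0.68 (SE 0.10) and WASHC2A by 0.53 (SE 0.09). WASHC1 and WASHC2A have close copies, so their counts are uncertain.

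Other listed cancer-testis genes were compared next. The list also holds genes well counted in both subsets. ATAD2, CEP55 and LAGE3 had at least 1523, 1338 and 328 counts in each library. The tallies of the list are therefore not those of genes with the MAGEA pattern alone. Of 69 listed, 68 were matched, 34 were at 0 in every library, and 17 were tested. Among the tested, 7 rose and 5 fell, with a median log2 fold change of -0.013, and 4 of those that rose had passed the filter through ICAM1-high alone. Genes called higher were 62.7% of all that passed by that route. They were 30.4% of all genes tested, with 29.4% called lower. PRSS21, a testis serine protease, had 1230 and 1288 counts against 0 and 0, at least 351.3-fold higher when each ICAM1-low library is set to 3 counts. The X-linked CT83 had 79 and 55 counts against 0 and 0, at least 18.7-fold higher on the same basis, and the X-linked SAGE1 had 40 and 65 against 0 and 0, at least 14.7-fold higher. PRAME, a cancer-testis antigen on another chromosome, was present in both subsets at 123 ± 2.38 against 87.9 ± 0.464 CPM and rose by 0.49 (SE 0.06, edgeR adjusted p = 4.90e-12). CTAG1A, CTAG1B and CTAG2 and the 5 GAGE genes listed were at 0 in every library. Sequence shared among the listed genes was not examined, and the treatment of reads that match several genes is not known. A count of 0 in this list therefore does not show that a gene is silent. With scaling by library size alone 7 rose and 2 fell. HORMAD1 (-0.66, edgeR adjusted p = 6.5e-07) and SPA17 (-0.76, edgeR adjusted p = 4.93e-04), both autosomal, were lower in ICAM1-high under either scaling.

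**Figure D5:**
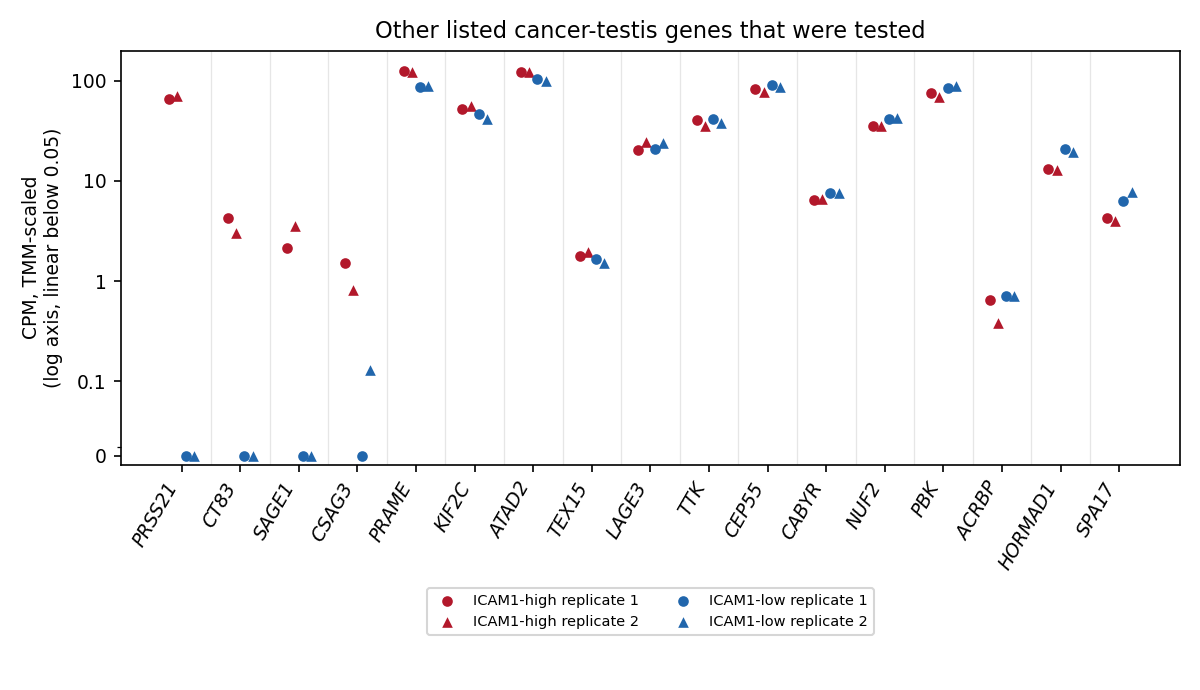
Level of the 17 tested cancer-testis genes outside the MAGE family, in TMM-scaled CPM on a log axis that is linear below 0.05. Each point is 1 library, red for ICAM1-high and blue for ICAM1-low, and genes are ordered by log2 fold change from the largest rise. PRSS21, CT83 and SAGE1 are at 0 in both ICAM1-low libraries, and most of the others lie close together in all 4 libraries.

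Markers of male germ cells, the normal site of MAGEA to MAGEC transcription, were at or near 0 in both subsets. None of 13 germ cell markers was abundant enough to test, 10 were at 0 in every library, DAZL, TNP1, PRM1 and PRM2 among them, and the list summed to 0.483 and 0.599 CPM in ICAM1-high and 0.640 and 0.196 CPM in ICAM1-low.

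Enzymes that write and remove DNA methylation, which is known to silence MAGEA promoters, were described for the same libraries. Of 11 listed, 10 were tested, 5 rose and 2 fell, with a median log2 fold change of 0.19 (6 and 2 by library size alone). Over all genes tested 30.4% were called higher and 29.4% lower. DNMT3B, a de novo methyltransferase, had 258 and 314 counts against 62 and 62, a rise of 1.95 (SE 0.16, edgeR adjusted p = 1.79e-17). UHRF1, which guides maintenance methylation, rose by 1.20 (SE 0.06) and DNMT1 by 0.26 (SE 0.05). TET3, which oxidises methylated cytosine, fell by 0.57 (SE 0.06) and the reader MBD2 by 0.50 (SE 0.07). Methylation itself was not measured here.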

How the data were processed

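The table that the authors deposited holds unnormalized whole-number counts, a column for every library. Column names equal the descriptions in the labels. FastQC 0.10.1 and the build GRCh38 are named per the submitters' processing notes. No source used here gives the aligner, counter, strand setting or read length. Symbols came from a gene name table (58207 of 58735 identifiers matched) and positions, gene types and exon lengths from GENCODE release 29. All genes were fitted together with edgeR 4.0.16 in R 4.3.3 (quasi-likelihood test, robust, TMM scaling, default filter with a minimum count of 10 and total of 15), with Benjamini-Hochberg adjustment over 16250 genes. Levels are TMM-scaled CPM. The test was checked on simulated counts of 15889 genes for this comparison. It recovered 40%, 68%, 96% and 100% of genes changed 1.25, 1.5, 2 and 4-fold, with 7 false calls. Only 50 genes were changed per fold, equally up and down, and none of low abundance. In the data 59.7% of genes were called, so the check does not cover errors from the choice of scaling or for genes near the filter. Alternatives were DESeq2 1.42.0, limma-voom (limma 3.58.1), other scalings, filters and thresholds, a block on replicate number, each library left out, and summing near-identical copies. Members and lists were chosen with earlier results of these data known. Of the lists (189 entries, 1 unmatched: BAGE), text names up to 4 members with the smallest adjusted p, those with a role stated for a MAGE gene, and the nearest tested protein-coding genes beside each tested member. HORMAD1, SPA17, ATAD2, CEP55, LAGE3, DNMT1, cell type markers and genes named for a count of 0 or a lost call were named after their values were seen. Some genes counted in the partner list are not reported here by name.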

Additional observations from a re-analysis of the deposited data

How the results depend on the processing

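The testis-restricted count of 3 higher genes was found under every alternative tried except the summing of near-identical copies, which makes 1 gene of MAGEA3 and MAGEA6 and gave 2. The MAGED to MAGEL count of 5 was 1 when at least a 2-fold change was asked for, 4 in DESeq2, and 4 to 5 when single libraries were left out, MAGEH1 being the gene lost in the last 2 settings. A lower member, MAGED4B, appeared with no filter on low counts (1 gene, log2 fold change -2.34, adjusted p = 0.00496) and when single libraries were left out (0 to 1 genes, without ICAM1-high replicate 2 or ICAM1-low replicate 2), and rests on the 26 counts of ICAM1-low replicate 1. Of 39 genes tested in the partner, WASH and retromer, SMC5/6, other MAGE-domain and DNA methylation lists together, called partner and pathway genes below, 13 were higher and 19 lower. With a 2-fold threshold these were 3 and 1, and with scaling by library size alone 9 were lower. When single libraries were left out 12 to 15 were higher and 13 to 19 lower. For the other cancer-testis genes, 7 higher and 5 lower, the 2-fold threshold gave 4 and 0 and library size alone gave 2 lower. No tested MAGE gene changed direction. With the replicate number as a block, 3 testis-restricted and 5 MAGED to MAGEL genes were higher, and 14 and 19 partner and pathway genes were higher and lower, as were 7 and 5 of the other cancer-testis genes. Same-numbered libraries of the 2 subsets correlated at 0.0417 in their deviations over 16250 genes. With 2 libraries per subset this value cannot decide whether the numbers pair the samples. Depth limits the 27 untested genes, and MAGEA1 in ICAM1-low. Shared sequence also limits the near-identical copies among the untested genes.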

Other observations

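The nearest tested protein-coding genes on either side of the 8 tested MAGE genes numbered 15. Of these 6 rose, 3 fell and 6 did not pass the test (median log2 fold change 0.18). Over all genes tested 30.4% were called higher and 29.4% lower (median 0.012). GABRA3, a GABA receptor subunit gene 247 kb from MAGEA3 at lower coordinates, had 66 and 57 counts in ICAM1-high against 5 and 5, a log2 fold change of 3.33 (edgeR adjusted p = 9.22e-11). CSAG3, a cancer-testis gene 5.91 kb from MAGEA6, had 28 and 15 counts against 0 and 2, a log2 fold change of 4.02 (edgeR adjusted p = 7.45e-06), with a 95% exact binomial interval of 4.69 to 153.4 for the ratio of library-scaled counts. ZNF275, 150 kb from MAGEA1, had 1418 and 1421 counts against 233 and 239 (log2 fold change 2.33, edgeR adjusted p = 7.79e-37), whereas PNMA6A on the other side of MAGEA1 had 27 and 38 against 27 and 13 (adjusted p = 0.302). CETN2, 57.2 kb from MAGEA6, had 639 and 624 counts against 455 and 414 (log2 fold change 0.28), a call lost without ICAM1-low replicate 2 (adjusted p = 0.102). APEX2 beside MAGED2 rose by 0.95 (edgeR adjusted p = 1.05e-16) and EPHB3 beside MAGEF1 by 1.96 (edgeR adjusted p = 3.3e-06), whereas GSPT2 beside MAGED1 fell by 0.68, PBDC1 beside MAGEE1 by 0.57 and VPS8 beside MAGEF1 by 0.28. The call of VPS8 was lost without ICAM1-low replicate 1, in DESeq2 and with library size alone (adjusted p up to 0.333). In ICAM1-low GABRA3, CSAG3 and EPHB3 did not reach the expression filter.

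Outside the MAGE family, 442 X-linked protein-coding genes were tested, of which 38.2% were higher and 26.5% lower in ICAM1-high (median log2 fold change 0.10). On the other chromosomes 33.5% of 12889 were higher and 32.2% lower (median 0.018). The difference between these shares was not tested. Of the 6 imprinted-region genes listed around MAGEL2 on chromosome 15, NDN and NPAP1 were at 0 in every library. MKRN3 had 73 and 84 counts against 44 and 45 (log2 fold change 0.56, edgeR adjusted p = 0.0367), a call lost without ICAM1-high replicate 2, without either ICAM1-low library, in DESeq2 and with no filter (adjusted p up to 0.218). Of 6 MAGE pseudogenes, antisense or readthrough annotations, the highest had 5 counts in all.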
